A study of Gallus gallus with 4 samples.

Results

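The genes described here copy DNA, supply its building blocks and repair it, and were compared between the tracheas of chickens that breathed hydrogen sulfide and those of control chickens. They were taken by name from a list of 57 genes, each required to have at least 20 reads over all libraries. Of these, 55 were found among the 26296 genes of the deposited count table, with 123 to 11829 reads each, and all 55 passed the filter on low counts. The DNA polymerase subunit genes POLA2 and POLD1 are not listed under these symbols and were not analysed here.

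RNA sequencing was done on trachea from chickens 42 days old, with 2 libraries per group. The exposed birds were kept in a chamber with 3.5 to 4.5 mg/kg hydrogen sulfide up to week 3 from week 0 and 19.5 to 20.5 mg/kg from week 4 up to week 6, and the control birds in a chamber without added gas, so the gas and any other difference between the chambers cannot be told apart. The sources used here give neither the strain nor the number of birds behind a library, so p-values measure only the spread between these libraries. Within groups that spread exceeded read sampling. A chi-square of the counts per degree of freedom was 62.9 between the exposed libraries and 87.1 between the controls. Read sampling alone would give about 1. Whether the spread came from different birds or from the handling of tissue was not tested. The libraries held 22283320 and 22706119 counted reads in exposed replicates 1 and 2 and 17400644 and 16899066 in control replicates 1 and 2. Markers of ciliated cells, basal epithelium and cartilage were read in all 4 libraries (11, 11 and 10 genes found, with none at 0 in any library). The same held for 7 secretory cell markers and for all muscle, endothelial and immune cell markers found. Reads above 0 thus do not identify the tissue. The summed level of the cartilage markers was uneven, at 5474 CPM in control replicate 1 against 18135 to 30780 CPM in the other libraries. CPM are reads divided by the library total after TMM scaling, which adjusts for library size and composition.

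A dividing cell marks its replication origins with the origin recognition complex, which loads the MCM helicase before S phase. Further factors then activate the helicase, and polymerases, the sliding clamp and ligase copy both strands while ribonucleotide reductase and thymidylate synthase supply nucleotides. In vertebrate cells many of these genes are transcribed mainly around the entry into S phase under E2F factors, while others are expressed throughout the cycle and in resting cells. In the airway the cells that divide include basal epithelial cells and lymphocytes. The roles named below are those known from human and yeast proteins.

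Most of the replication and repair genes had a lower level in the exposed tracheas. Of the 55, 52 had a log2 fold change below 0, with a median of -0.53, while the median over all 16545 tested genes was 0.011. For 44 of the 55, both exposed libraries lay below both controls, which held for 17.2% of all tested genes. None of the 55 had both exposed libraries above both controls, against 15.3% of all tested genes. The 55 genes and the lists below were chosen with earlier results of these data known. These shares therefore describe the genes and give no independent support. The summed level of the 55 genes was 1619 and 1510 CPM in exposed replicates 1 and 2 and 2032 and 2216 CPM in control replicates 1 and 2, so the groups did not overlap. In bulk tissue, fewer cells expressing these genes and less RNA of them per cell cannot be told apart.

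No single gene passed edgeR's quasi-likelihood test at a Benjamini-Hochberg adjusted p under 0.05, either among the 55 or among all tested genes (0%). The smallest adjusted p over all genes was 0.571. At an unadjusted p under 0.05, 28 of the 55 were lower and 0 were higher, against 3.48% and 2.12% of all tested genes. That count of 28 depended on single libraries and was smaller whenever 1 library was left out. The share over all tested genes also moved in these fits, which leave 1 library in a group. The median log2 fold change of the 55 genes then lay between -0.48 and -0.60, against -0.53 with all libraries. DESeq2, a second count test, called 1 of the 55, TOP2A, against 0.798% of all tested genes. For any gene on its own, exact permutation of 2 and 2 libraries gives a p of at least 1 in 3.

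**Figure D1:**
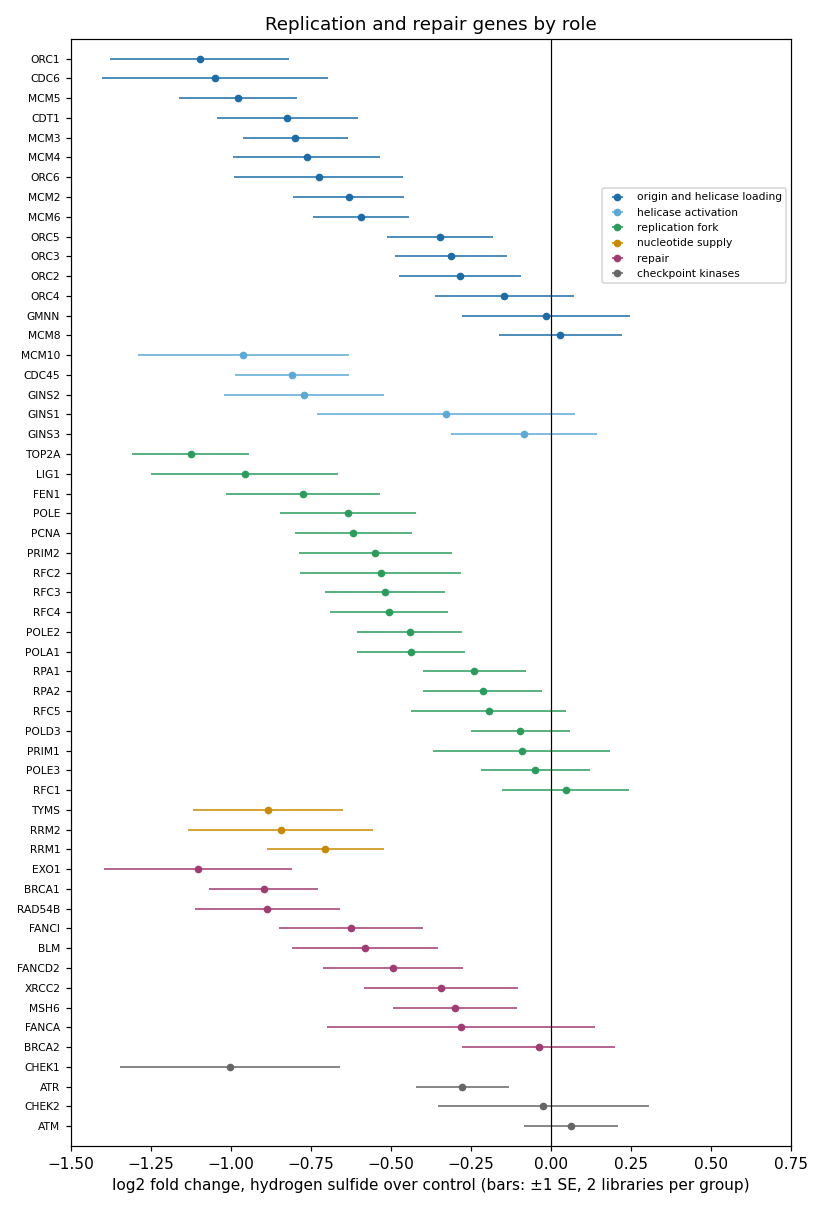
Log2 fold change of exposed over control (x axis) for each of the 55 genes (y axis), coloured by role, with bars of 1 SE from the edgeR fit. Values run from -1.13 for TOP2A to 0.060 for ATM, and each role except nucleotide supply holds genes within 1 SE of 0.

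Among the genes that mark origins and load the helicase, 14 of 15 were lower, with a median log2 fold change of -0.63. For 13 of the 15 both exposed libraries lay below both controls, against 17.2% of all tested genes. The helicase subunit gene MCM5 stood at 22.9 and 19.2 CPM in exposed replicates 1 and 2 and at 39.7 and 43.3 CPM in control replicates 1 and 2 (log2 fold change -0.98, SE 0.18; edgeR adjusted p = 0.655). MCM3 stood at 27.5 and 27.6 CPM against 44.9 and 51.0 CPM (-0.80, SE 0.16; edgeR adjusted p = 0.687). MCM6 stood at 57.0 and 53.8 CPM against 79.7 and 87.7 CPM (-0.59, SE 0.15; edgeR adjusted p = 0.762). For all 3 subunits the gap between the groups was wider than the gap within either group. The other measured subunits of the helicase, MCM2 and MCM4, stood at -0.63 (SE 0.17) and -0.76 (SE 0.23) on the log2 scale, so the 5 measured subunits lay between -0.59 and -0.98. MCM8, a relative that acts in recombination repair and is not part of the replicative helicase, stood at 19.6 and 22.98 CPM against 20.4 and 21.3 CPM, and its groups overlapped (0.028, SE 0.19).

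The subunits of the origin recognition complex did not all have the same difference. ORC1, whose ATPase is needed to load the helicase, stood at 23.8 and 21.8 CPM in the exposed libraries and at 37.2 and 60.3 CPM in the controls (-1.10, SE 0.28; edgeR adjusted p = 0.762). Control replicate 2 was well above control replicate 1 for this gene, and without it the value was -0.72. Of the 30 members below -0.5, 6 moved by over 1.5 times toward 0 when 1 library was left out, and ORC1 is 1 of them. Without control replicate 2, MCM4 had -0.50 in place of -0.76 and PRIM2 -0.33 in place of -0.55. MCM10 had -0.63 in place of -0.96 without control replicate 1. Without exposed replicate 2, RRM2 had -0.54 in place of -0.85 and RFC2 -0.31 in place of -0.53. ORC6 was lower too (-0.73, SE 0.26). ORC2, ORC3, ORC4 and ORC5 lay between -0.15 and -0.35, with SEs from 0.16 to 0.22. CDC6 and CDT1, which bring the helicase to the complex, were lower in both exposed libraries. CDT1 stood at 7.83 and 7.78 CPM against 14.0 and 13.6 CPM (-0.82, SE 0.22), and CDC6 at 1.44 and 1.67 CPM against 3.27 and 3.19 CPM (-1.05, SE 0.35). CDC6 rested on 31 to 60 reads per library. GMNN, which encodes geminin, the inhibitor of CDT1, stood at 23.02 and 18.1 CPM against 24.2 and 17.3 CPM, with overlapping groups (-0.015, SE 0.26).

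The 5 genes of helicase activation were all lower, with a median of -0.77. Of these, 4 had no overlap, against 17.2% of all tested genes. CDC45, which travels with the MCM ring and the GINS complex as the active helicase, stood at 19.5 and 17.7 CPM in the exposed libraries and at 34.1 and 31.1 CPM in the controls (-0.81, SE 0.18; edgeR adjusted p = 0.728). GINS2 stood at 8.48 and 7.10 CPM against 14.5 and 12.2 CPM (-0.77, SE 0.25; edgeR adjusted p = 0.833). MCM10, needed for the start of unwinding, stood at 6.90 and 5.25 CPM against 14.2 and 9.44 CPM (-0.96, SE 0.33; edgeR adjusted p = 0.843). These 3 genes separated the groups, with control replicate 1 the highest library for each. GINS3 stood at 17.2 and 18.6 CPM against 21.6 and 16.3 CPM and did not separate them (-0.085, SE 0.23). GINS1 had 27 to 35 reads per library, too few to place it with precision (-0.33, SE 0.40).

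At the replication fork, 17 of 18 genes lay below 0, with a median of -0.47. Of the 18, 14 were lower with no overlap, against 17.2% of all tested genes. TOP2A, the topoisomerase that untangles replicated DNA and is most abundant late in the cell cycle, had the lowest log2 fold change of the 55 genes. It stood at 94.5 and 81.7 CPM in the exposed libraries and at 174 and 211 CPM in the controls (-1.13, SE 0.18; edgeR adjusted p = 0.571, DESeq2 adjusted p = 0.00822). PCNA, the sliding clamp, stood at 51.4 and 41.9 CPM against 66.9 and 76.5 CPM (-0.62, SE 0.18; edgeR adjusted p = 0.828). LIG1, the ligase that seals Okazaki fragments, stood at 6.48 and 4.66 CPM against 10.1 and 11.5 CPM (-0.96, SE 0.29; edgeR adjusted p = 0.829). The groups were apart for all 3, and exposed replicate 2 was the lowest library for each. FEN1, the nuclease that trims the flaps of Okazaki fragments before ligation, was lower as well (-0.77, SE 0.24).

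The polymerase and clamp loader genes held both low values and values near 0. POLE, the catalytic subunit of the leading strand polymerase, stood at 15.2 and 16.5 CPM against 21.8 and 27.4 CPM (-0.64, SE 0.21). Its partner subunit POLE2 had -0.44 (SE 0.16), while the histone-fold subunit POLE3, which is also part of a chromatin remodelling complex, overlapped between groups at -0.050 (SE 0.17). POLA1, the catalytic subunit of the polymerase that extends primers, had -0.44 (SE 0.17). Of the primase genes, PRIM2 had -0.55 (SE 0.24) and PRIM1 -0.092 (SE 0.28). POLD3, an accessory subunit of the lagging strand polymerase, had -0.096 (SE 0.15).

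RFC1, the large subunit of the clamp loader, stood at 144 and 109 CPM in the exposed libraries and at 129 and 116 CPM in the controls, with overlapping groups (0.045, SE 0.20). The small subunits RFC2, RFC3 and RFC4 had -0.53 (SE 0.25), -0.52 (SE 0.19) and -0.51 (SE 0.18), and their groups did not overlap. RFC5 had -0.20 (SE 0.24) and overlapped. The small subunits are known to serve other loaders besides that of RFC1. RPA1 and RPA2, which coat unwound DNA, had -0.24 (SE 0.16) and -0.21 (SE 0.19).

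All 3 genes of nucleotide supply were lower with no overlap, against 17.2% of all tested genes, and their median was -0.85. RRM1, the large subunit of ribonucleotide reductase, stood at 31.1 and 25.2 CPM in the exposed libraries and at 45.0 and 46.9 CPM in the controls (-0.71, SE 0.18; edgeR adjusted p = 0.762). RRM2, the small subunit made in S phase, stood at 18.5 and 11.4 CPM against 27.7 and 26.1 CPM (-0.85, SE 0.29; edgeR adjusted p = 0.843). TYMS, which makes thymidylate, stood at 10.2 and 8.10 CPM against 16.4 and 17.4 CPM (-0.88, SE 0.23; edgeR adjusted p = 0.762). In all 3 the controls lay close together and exposed replicate 2 was below exposed replicate 1. The median of these 3 was -1.06 without exposed replicate 1 and -0.56 without exposed replicate 2, which is over 1.5 times smaller than with all libraries.

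All 10 repair genes had a log2 fold change below 0, with a median of -0.54. Of the 10, 8 had no overlap, against 17.2% of all tested genes. BRCA1, a ubiquitin ligase subunit that promotes homologous recombination, stood at 40.2 and 35.1 CPM in the exposed libraries and at 65.3 and 74.9 CPM in the controls (-0.90, SE 0.17; edgeR adjusted p = 0.660). RAD54B, a motor protein of strand exchange, stood at 7.32 and 8.23 CPM against 14.7 and 14.0 CPM (-0.89, SE 0.23; edgeR adjusted p = 0.762). EXO1, a nuclease of end resection and mismatch repair, stood at 4.91 and 3.66 CPM against 8.83 and 9.62 CPM (-1.10, SE 0.29; edgeR adjusted p = 0.762). For these 3 genes neither exposed library came near the lower control. BRCA2, needed for homologous recombination, stood at 94.0 and 69.4 CPM against 72.1 and 95.6 CPM, so each group held a high and a low library (-0.039, SE 0.24).

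The Fanconi anaemia genes, whose products repair crosslinked DNA, also varied. FANCI and FANCD2, which act as a pair on DNA, had -0.63 (SE 0.23) and -0.49 (SE 0.22) with no overlap. FANCA, of the ligase complex that modifies them, stood at 10.2 and 5.66 CPM against 7.47 and 11.8 CPM and overlapped (-0.28, SE 0.42). The helicase gene BLM had -0.58 (SE 0.23), the recombination gene XRCC2 -0.34 (SE 0.24) and the mismatch recognition gene MSH6 -0.30 (SE 0.19).

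The checkpoint kinases differed among themselves, with 3 of 4 lower and a median of -0.15. CHEK1, the effector kinase of replication stress, stood at 2.64 and 2.04 CPM in the exposed libraries and at 4.25 and 5.13 CPM in the controls (-1.003, SE 0.34; edgeR adjusted p = 0.843), from 45 to 87 reads per library. ATR, which activates CHEK1, stood at 47.7 and 46.2 CPM against 56.1 and 57.7 CPM (-0.28, SE 0.15; edgeR adjusted p = 0.999). ATM, which responds to DNA breaks, stood at 146 and 159 CPM against 144 and 148 CPM and had the highest log2 fold change of the 55 genes (0.060, SE 0.15). CHEK2, the effector of ATM, stood at 4.31 and 5.38 CPM against 4.20 and 5.66 CPM (-0.024, SE 0.33). The groups separated for CHEK1 and ATR and overlapped for ATM and CHEK2. The median of these 4 depended on single libraries, at -0.089 and -0.22 after removal of exposed replicate 1 or 2 and at -0.25 and -0.10 after removal of control replicate 1 or 2.

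Across the 55 genes, a control library was the highest for 52 and an exposed library the lowest for 50. Control replicate 2 was the highest library for 32 genes and control replicate 1 for 20. Exposed replicate 2 was the lowest for 32 genes and exposed replicate 1 for 18. The mean log2 deviation from each gene's mean over the 4 libraries was -0.21 and -0.31 in exposed replicates 1 and 2 and 0.23 and 0.29 in control replicates 1 and 2. The typical gap between replicates was smaller than the median difference between groups, at a median of 0.20 log2 units between the exposed libraries and 0.18 between the controls. The counts in this paragraph were made for the 55 genes only, so no share of all tested genes stands beside them. For 40 of the 55 genes the log2 fold change was larger than both within-group gaps. For a further 10 genes it lay within 0.1 of 0. These are GMNN, MCM8, GINS3, PRIM1, POLD3, POLE3, RFC1, BRCA2, CHEK2 and ATM.

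**Figure D2:**
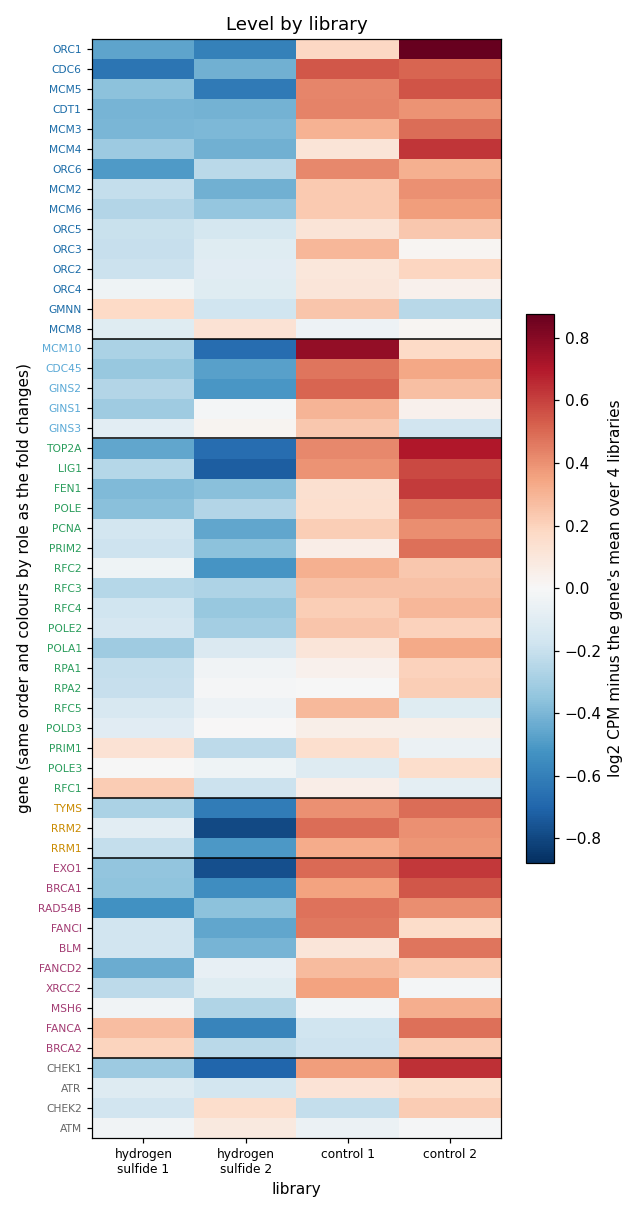
Log2 CPM of each gene (rows, ordered as in the plot of fold changes) minus its mean over the 4 libraries (columns), with red above and blue below that mean. The exposed columns are mostly blue and the control columns mostly red, and rows such as GMNN, BRCA2 and FANCA mix both colours within a group.

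The number of reads of a gene set against that of a partner in the same library does not depend on how libraries are scaled. The pairs below were chosen after the values were seen, so they describe the data and carry no test, and such a ratio says nothing of which partner is more abundant because transcript lengths differ. Per 100 reads of ORC2 there were 156 and 135 reads of ORC1 in exposed replicates 1 and 2 and 201 and 306 in control replicates 1 and 2. MCM5 had 117 and 83.5 reads per 100 of MCM8 with exposure and 194 and 203 without. The origin and helicase genes thus differed unequally within the libraries, with no overlap between groups for either ratio.

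The same held for several complexes of the fork and of repair. RFC4 had 13.1 and 15.5 reads per 100 of RFC1 with exposure and 19.2 and 22.4 without, while the ratio of RFC5 to RFC1 overlapped. POLE had 32.4 and 36.0 reads per 100 of POLE3 against 50.1 and 52.3. GINS2 had 49.3 and 38.2 reads per 100 of GINS3 against 66.9 and 74.4. These 3 ratios had no overlap between groups. BRCA1 had 42.8 and 50.6 reads per 100 of BRCA2 against 90.6 and 78.3. CHEK1 had 61.3 and 37.8 reads per 100 of CHEK2 against 101 and 90.6. TOP2B, the topoisomerase II gene that resting cells also express, gave the widest contrast among the 17 ratios computed, with 32.5 and 24.2 reads of TOP2A per 100 of its own with exposure and 62.7 and 66.8 without. The ratio of the ribonucleotide reductase subunits RRM2 and RRM1 overlapped between the groups, at 59.6 and 45.2 against 61.6 and 55.7.

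**Figure D3:**
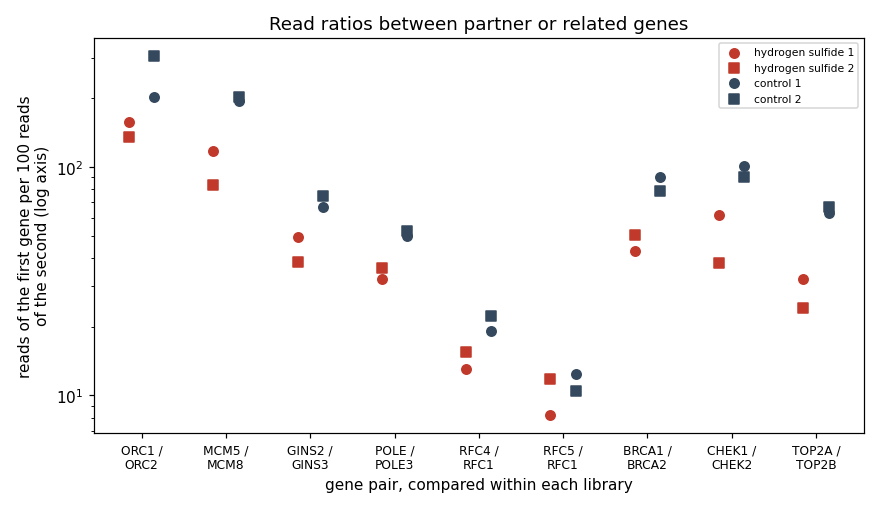
Reads of the first gene per 100 reads of the second, in each library (log axis), for 9 pairs of partner or related genes, in red for exposed and dark blue for control libraries. The exposed points lie below the control points in every pair shown except RFC5 with RFC1.

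Genes of the same and neighbouring pathways outside the 55 were described by lists, and none of the 148 tested passed edgeR's test. DESeq2 called 5 of them, all lower, where it called 0.798% of all tested genes in either direction. The 5 were the cyclin gene CCNA2 and the proliferation and mitosis markers PLK1, CCNB2, BUB1 and AURKA. It called 0 genes of the other replication, nucleotide and repair lists. The counts without overlap in these lists are to be read against the 17.2% of all tested genes that were lower and the 15.3% that were higher in that way. Of 27 other replication genes tested, 25 were lower, 16 of them (59.3%) with no overlap, and the median was -0.50. UHRF1, which guides DNA methylation behind the fork, stood at 44.6 and 35.1 CPM in the exposed libraries and at 65.4 and 87.8 CPM in the controls (-0.94, SE 0.23). ATAD5, which unloads the clamp, had -0.62 (SE 0.16). Of 13 other genes of nucleotide metabolism, 10 were lower, 6 (46.2%) with no overlap, with a median of -0.18. TK1, the thymidine kinase of S phase, had -0.80 (SE 0.27) and DUT, which removes dUTP, -0.53 (SE 0.17).

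Regulators of the entry into S phase had a median of -0.23 over 27 tested genes, with 22 lower, 13 of the 27 (48.1%) with no overlap. E2F1, a transcription factor that activates replication genes, stood at 9.17 and 9.003 CPM in the exposed libraries and at 14.3 and 14.6 CPM in the controls (-0.67, SE 0.21). CCNE2 and CCNA2, cyclins of S phase entry and S phase, had -1.39 (SE 0.29) and -1.05 (SE 0.18). CDKN1A, which encodes the cyclin-dependent kinase inhibitor p21, was the 1 gene of this list with both exposed libraries above both controls, at 39.0 and 32.5 CPM against 24.6 and 28.9 CPM (0.42, SE 0.19; edgeR adjusted p = 0.971). It was named after its values were seen. All 6 genes chosen as general proliferation and mitosis markers were lower with no overlap, with a median of -1.05. MKI67 had -0.90 (SE 0.21), PLK1 -1.46 (SE 0.21) and CCNB2 -1.12 (SE 0.18).

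The other repair and damage response lists had medians from -0.22 to 0.012. Of 27 other genes of recombination and crosslink repair, 21 were lower, 14 (51.9%) with no overlap, and the median was -0.22. RAD54L, a motor protein of recombination, had -0.75 (SE 0.26) and FANCB -0.86 (SE 0.29). Mismatch and base excision repair genes had a median of -0.081 over 17, 11 of them below 0. Without overlap, 6 were lower (35.3%) and 2 higher (11.8%). Of these, TDG, a thymine glycosylase, had -0.44 (SE 0.17) and MSH4, known from meiosis, -0.40 (SE 0.22). End joining genes had a median of -0.19 over 9, 8 of them below 0 (88.9%, against 48.4% of all tested genes). Of the 9, 2 were lower (22.2%) and 0 higher without overlap. Nucleotide excision repair genes had a median of 0.012 over 11, 5 of them below 0. Of these 11, 2 were lower (18.2%) and 1 higher (9.09%) without overlap. In these last 2 lists the shares lower without overlap were near the 17.2% of all tested genes. The share of end joining genes below 0 was above that of all tested genes. Genes of the damage response had a median of -0.067 over 11, 7 of them below 0. Without overlap, 4 were lower (36.4%) and 0 higher. Among the 4 were the histone variant gene H2AFX at -0.69 (SE 0.40) and the ubiquitin ligase gene RNF8 at -0.18 (SE 0.16). Whether these lists differ from the 55 genes was not tested.

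Most markers of lymphocytes and other immune cells were lower in the same libraries as the replication genes. The summed level of 16 B cell and plasma cell markers was 2954 and 2522 CPM in exposed replicates 1 and 2 and 13360 and 11757 CPM in control replicates 1 and 2, with 15 of 16 lower, 13 of them without overlap, against 17.2% of all tested genes, and a median of -0.94. Most of that sum came from IGLL1, at 1370 and 1095 CPM against 6670 and 6254 CPM, and IGJ, at 955 and 760 CPM against 5840 and 4338 CPM. The other 14 markers, summed after these values were seen, had 629 and 666 CPM against 850 and 1165 CPM, with 13 lower, 11 of them without overlap, and a median of -0.90. None of these markers was at 0 in any library. The summed level of 16 T cell markers was 513 and 452 CPM against 577 and 839 CPM. Of the 16, 14 were lower, and 8 of the 16 (50.0%) were lower without overlap. The largest part of that sum came from PTPRC, at 276 and 238 CPM against 307 and 479 CPM. The summed level of 8 myeloid markers was 331 and 245 CPM against 523 and 429 CPM, with 7 lower, 6 of the 8 (75.0%) without overlap. LYZ, the lysozyme gene, was the myeloid marker that was higher, at 48.2 and 54.3 CPM against 46.8 and 26.5 CPM (0.48). The part of these cell types in the lower level of the replication genes was not tested.

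Epithelial markers were mixed. The summed level of 11 basal epithelial markers was 760 and 1028 CPM with exposure and 885 and 896 CPM without, so the groups overlapped. Of these 6 were lower and 5 higher, with a median of -0.078. TP63, DST and LAMB3 were lower without overlap, though DST only narrowly, at 2.73 and 3.21 CPM against 3.22 and 3.42 CPM (-0.16, SE 0.33). COL17A1 was higher without overlap, at 83.9 and 113 CPM against 71.0 and 75.5 CPM (0.42). Ciliated cell markers summed to 1248 and 1955 CPM against 1534 and 1381 CPM, and endothelial markers to 1370 and 1160 CPM against 1357 and 1107 CPM. The sum of 6 secretory cell markers was higher, at 576 and 489 CPM against 127 and 190 CPM. Most of it came from AGR2 and SPDEF. Of the 6, 4 were higher without overlap (66.7%, against 15.3% of all tested genes), while FOXA2 (-0.26) and MUC4 (-0.084) were lower with overlapping groups. Cartilage and muscle markers differed more within groups than between them. Cartilage markers summed to 18135 and 27588 CPM against 5474 and 30780 CPM, and muscle markers to 1755 and 776 CPM against 1893 and 378 CPM. The part of these tissues in the result was not tested either. The number of the 55 genes below 0 ranged from 48 to 52 when any 1 library was left out. Such fits leave 1 library in a group and cannot show the part of any tissue.

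**Figure D4:**
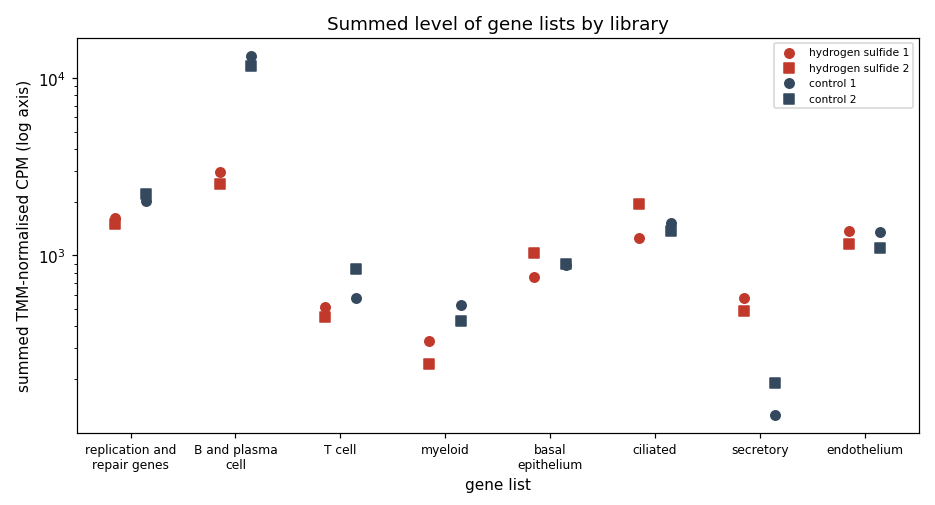
Summed CPM of the 55 replication and repair genes and of cell type marker lists in each library (log axis), in red for exposed and dark blue for control libraries. The replication genes and the B and plasma cell, T cell and myeloid lists are lower in both exposed libraries, the secretory list is higher, and the basal, ciliated and endothelial lists overlap.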

How the data were processed

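The authors deposited a single table of read counts per gene, with 1 column per library and no normalization. Per the submitters' processing notes, HISAT2, a read aligner, was used. The sources used here name no counting program, genome build, annotation or strand setting, so reads of overlapping or antisense genes cannot be told apart and no coordinates are given.

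Counts were filtered with filterByExpr by group, scaled by TMM and tested with glmQLFit and glmQLFTest of edgeR 4.0.16 in R 4.3.3 (current dispersion method, two-sided, no covariate, 2 residual degrees of freedom), and p-values were adjusted by Benjamini-Hochberg over the 16545 genes kept. Each SE was obtained from the log2 fold change and its F statistic. DESeq2 1.42.0, limma 3.58.1 (voom), other scalings, no filter, a replicate block and leaving out each library were the alternatives. The biological coefficient of variation common to all genes was 33.1%.

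The 55 genes and all lists were chosen with earlier results of these data known. Per role, the 3 genes of smallest p, the most abundant and the highest fold change were to be named with full values, and per context list the 2 of smallest p plus MCM7, E2F1, TK1 and MKI67. MCM7 was not found in the table, and an item that the rule takes is left out. The genes it takes from the end joining and nucleotide excision lists are left out too. PRKDC and ERCC8, also of these lists, are given under other observations. Other genes were named after their values were seen. Of 166 context entries, 150 matched by symbol, 2 through a RefSeq gene table of assembly GRCg7b and 14 not at all. Of 107 cell type markers, 97 matched. The planned search for promoter motifs was not run, because no sequence was used here. Intervals and tests cover these 4 libraries only.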

Additional observations from a re-analysis of the deposited data

How the results depend on the processing

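The median log2 fold change of the 55 genes was -0.53, and it was -0.62 with library totals in place of TMM, when the median of all genes moved from 0.011 to -0.071. It lay between -0.52 and -0.54 with RLE size factors, no filter on low counts, DESeq2, limma-voom and the replicate block (-0.54), and between -0.48 and -0.60 when any 1 library was left out. The number of the 55 below 0 was 52 to 55 under the alternatives with all libraries. The number without overlap was 43 to 45 under those and 46 to 48 with 1 library left out, where separation is easier to reach (28.8% to 37.3% of all tested genes). The 55 below 0 and the 45 without overlap were reached with library totals. There 60.1% of all tested genes lay below 0 and 23.7% were lower without overlap, against 48.4% and 17.2% with TMM. DESeq2 called 132 of all genes and 1 of the 55, where edgeR called 0 and 0. A minimum of 100 reads or 1 read changed nothing in the 3 summaries of the 55.

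With library totals, MCM8 (-0.053), RFC1 (-0.040) and ATM (-0.022) had the opposite sign. They had 0.028, 0.045 and 0.060 with TMM, so each moved about as far as the median of all genes did. Leaving out 1 library turned the sign of 10 genes whose groups overlapped. Their ranges were -0.27 to 0.17 for BRCA2, -0.22 to 0.20 for CHEK2, -0.76 to 0.081 for FANCA, -0.28 to 0.14 for GINS3, -0.25 to 0.25 for GMNN, -0.091 to 0.14 for MCM8, -0.17 to 0.078 for POLE3, -0.28 to 0.075 for PRIM1, -0.17 to 0.24 for RFC1 and -0.39 to 0.021 for RFC5. Of the 220 such values, 204 kept their direction. With 1 library left in a group, that library is assumed to vary like the others.

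Deviations of same-numbered libraries from their group means had a correlation of -0.0020 over tested genes. With 2 libraries per group both pairs give this same value, so it cannot show whether the libraries are paired. The labels do not say that the numbers pair them. The block changed no adjusted call. With the block, 23 of the 55 were lower at an unadjusted p under 0.05, against 3.21% of all tested genes. Depth limits GINS1, CDC6 and CHEK1, which had under 100 reads per library.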

Other observations

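SLBP, whose product binds the stem-loop of replication-dependent histone messages, had 1 exposed library far from the rest, at 26.6 and 6.74 CPM in exposed replicates 1 and 2 and 24.6 and 24.0 CPM in the controls. NBN, a subunit of the complex that senses DNA breaks, stood at 147 and 56.5 CPM in exposed replicates 1 and 2 against 85.4 and 90.8 CPM in the controls, while its partners RAD50 (65.8 and 64.8 CPM against 70.1 and 73.9 CPM) and MRE11A (50.1 and 45.6 CPM against 51.1 and 41.4 CPM) showed no such gap.

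Some repair genes outside the 55 split the libraries across the groups. RAD17, the loader of the checkpoint clamp, stood at 22.2 and 40.6 CPM in exposed replicates 1 and 2 and at 34.9 and 21.4 CPM in control replicates 1 and 2. RAD1, a subunit of that clamp, stood at 8.20 and 15.3 against 15.1 and 7.14 CPM. MSH3 stood at 26.4 and 52.2 against 48.8 and 29.1 CPM, and ERCC8 at 19.8 and 40.3 against 37.8 and 20.4 CPM. The RefSeq table of assembly GRCg7b lists all 4 on the Z chromosome, where it lists 0 of the 55 genes.

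MCM4 and PRKDC, the catalytic subunit gene of the end joining kinase, are neighbours in the same table. PRKDC stood at 183 and 136 CPM in the exposed libraries and 168 and 208 CPM in the controls and overlapped (-0.24, SE 0.22), whereas MCM4 did not, at 27.7 and 25.8 CPM against 37.5 and 53.5 CPM.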
